A study of Mus musculus with 6 samples.

Results

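The 33 genes described here encode the enzymes and regulators of sterol and fatty acid synthesis that sterol regulatory element-binding proteins (SREBPs) are known to control. They were chosen by symbol from a list of the pathway, with earlier results of these data known. All 33 were found among the 18828 genes of the deposited table. The list holds 18 enzymes of cholesterol synthesis, of which 7 act in the mevalonate steps and 11 in the squalene and sterol steps, 5 genes of SREBP regulation and sterol transport, and 10 genes of fatty acid synthesis. A filter on low counts kept 32 of them. The exception was Me1, the cytosolic malic enzyme that supplies NADPH for fatty acid synthesis, with 9, 8 and 4 counts in UA libraries a to c, against 12, 8 and 16 counts in DMSO libraries a to c.

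T cells from the spleens of FVB mice, labelled as wild type, were activated for 48 h with beads that carry anti-CD3 and anti-CD28. In the UA group they received 50 µM urolithin A, a metabolite that gut bacteria make from plant ellagitannins, at the same time, and in the DMSO group they received the solvent. Each group had 3 libraries, a to c. Both groups were activated, so no comparison with resting T cells can be made. The labels do not say whether the libraries came from separate mice or cultures, so the p-values measure only the spread between these libraries, which may be technical.

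SREBPs are made as precursors in the membrane of the endoplasmic reticulum, where the escort protein SCAP holds them. When membrane cholesterol is plentiful, INSIG proteins retain SCAP there. When it is low, SCAP carries the precursor to the Golgi, where proteases release the part that enters the nucleus and activates genes, often together with the factors NF-Y and Sp1. SREBP2 is known mainly for the cholesterol genes and SREBP1c for the fatty acid genes, and activated T cells are known to need SREBP activity to build membranes as they grow and divide. Oxysterols made when sterols accumulate activate LXR, which is known to raise the sterol exporters Abca1 and Abcg1.

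Total counts ran from 12738059 to 19081219 in the UA libraries and from 16469483 to 18077217 in the DMSO libraries. The ribosomal RNA gene Rn18s took between 0.120% and 3.97% of the counts in the UA libraries, against 17.6% in DMSO library b and 0.0687% and 0.0805% in DMSO libraries a and c. Across the 14444 genes tested, 2311 were lower in UA than in DMSO libraries (16.0%) and 2560 were higher (17.7%) at a limma adjusted p under 0.05. Of these calls 52.6% were thus higher, against 70.6% when libraries were scaled to their total counts alone. The T cell markers were present in every library, with summed levels of 2001 to 2173 counts per 1000000 of the scaled library size (CPM) in UA libraries and 1964 to 2052 CPM in DMSO libraries, and all 9 had counts. The 8 B cell markers, all with counts, summed to 207.6 to 250.8 CPM in UA libraries against 164 to 180.3 CPM in DMSO libraries. The 10 myeloid markers, 7 of them with counts, summed to 7.55 to 9.34 CPM in UA libraries against 2.99 to 3.24 CPM in DMSO libraries. Most of the B cell sum was Ighm, and most of the myeloid sum was Mpeg1, with 107 to 138 counts in UA libraries against 33 to 44 counts in DMSO libraries. Itgam had 7, 11 and 6 counts in UA libraries a to c against 3, 0 and 4 counts in DMSO libraries a to c, and Lyz2 had 3, 9 and 6 counts in UA libraries against 3, 2 and 3 counts in DMSO libraries. Adgre1 had 1 to 3 counts in UA libraries against 5 or 6 counts in DMSO libraries, Csf1r, Csf3r and S100a8 had at most 4 counts in any library, and S100a9 was at 0 in all. The part of these other cells in the results below was not tested. In bulk RNA, fewer cells of a type and less RNA per cell cannot be told apart.

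Of the 32 genes tested, 16 fell in UA libraries, or 50.0%, where 16.0% of all genes did. A further 2, Scd2 and Elovl5, or 6.2%, rose, where 17.7% of all genes did. The other 14 did not pass the test. Because the list was chosen with earlier results of these data known, such shares describe it and are not a test of the pathway. The median log2 fold change of UA over DMSO was -0.22 over the 32 genes, against 0.01 over all genes tested. In 18 of the 32 genes every UA library lay below every DMSO library, which held for 22.7% of all genes. In 2 genes every UA library lay above every DMSO library, which held for 24.1% of all genes. The changes were small: the called genes fell by between 14.2% and 35.5%, and the larger of the 2 rises was 35.0%. Leaving out DMSO library b and UA library a, the libraries with the most Rn18s, gave 11 lower and 1 higher, where 8.61% and 9.89% of all genes were called. With libraries scaled to total counts alone, 5 were lower and 1 was higher, where 6.45% and 15.5% of all genes were called. A further alternative, chosen after seeing the data, removed the ribosomal RNA genes before that scaling. It gave 15 lower and 2 higher, where 14.7% and 18.8% of all genes were called. The calls lost without the 2 libraries were those of Hmgcs1, Cyp51, Msmo1, Hsd17b7, Dhcr7 and Elovl5, with adjusted p-values from 0.0767 (Hsd17b7) to 0.275 (Dhcr7). Those lost with total counts alone were the same 6 and those of Fdps, Srebf2, Insig1, Acly, Scd1 and Fads1, with adjusted p-values from 0.0745 (Acly) to 0.559 (Msmo1).

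**Figure D1:**
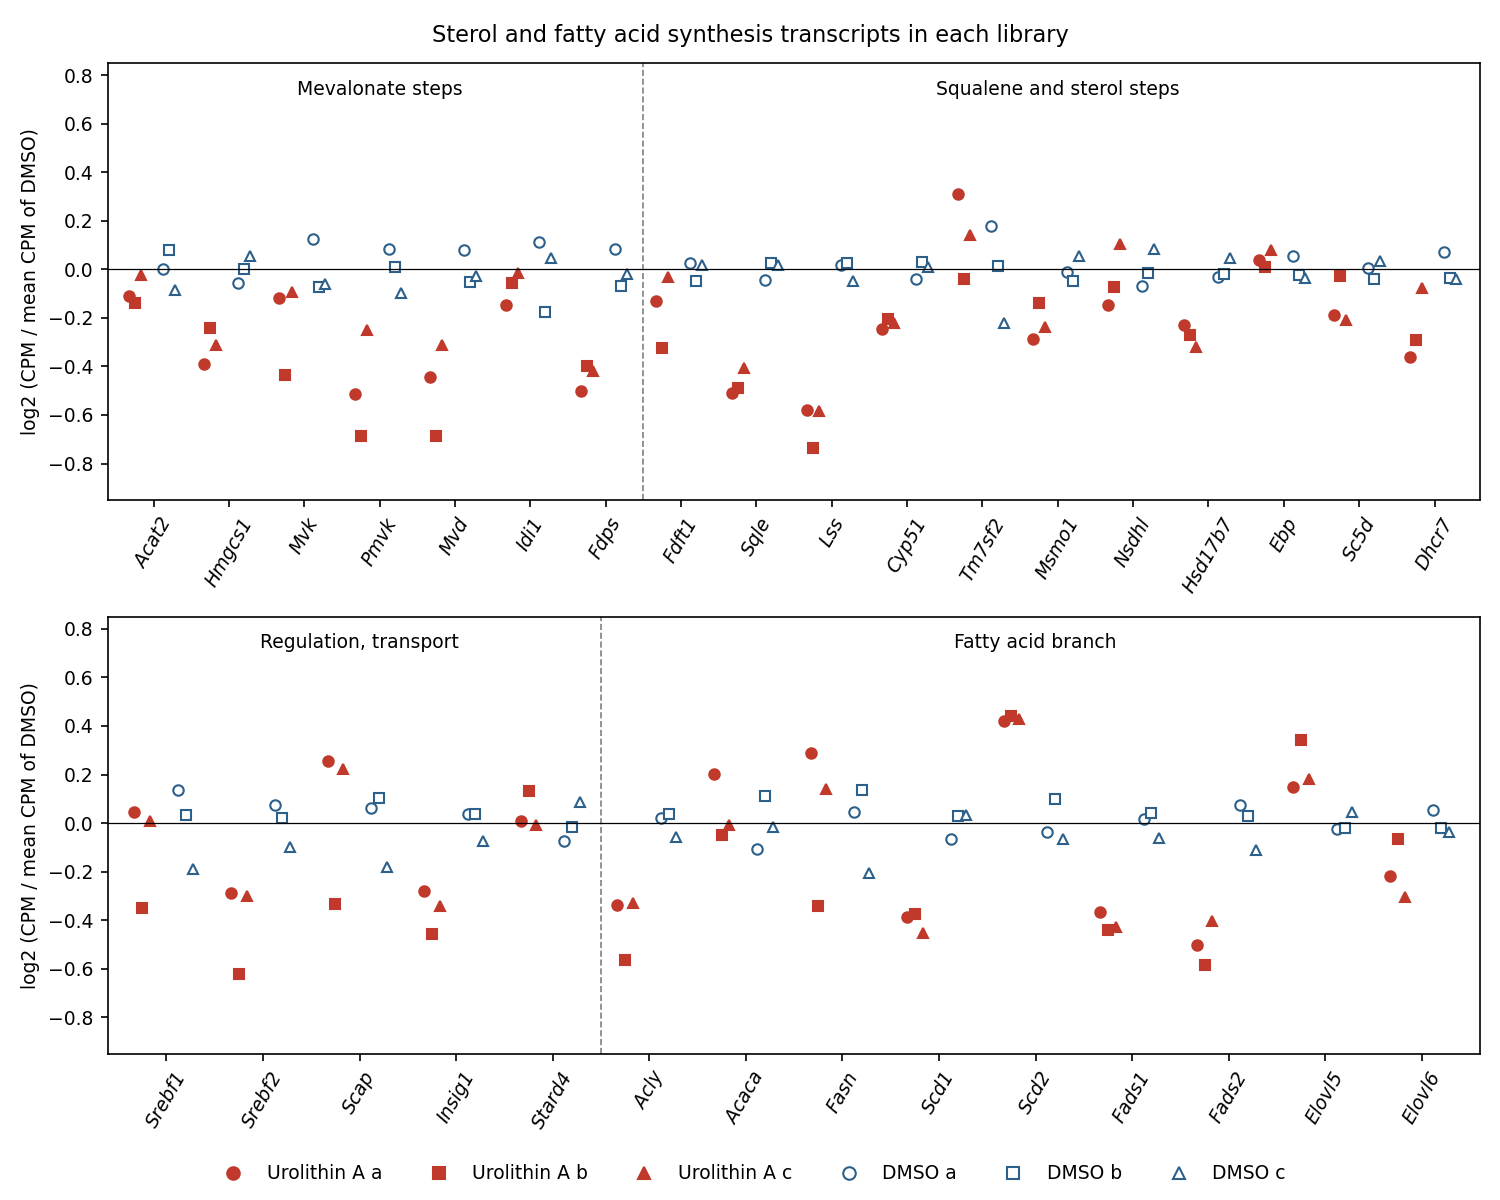
The y axis gives each library's CPM as a log2 ratio to the mean of the 3 DMSO libraries, for each of the 32 genes tested along the x axis, with UA a to c as filled red points left of DMSO a to c as open blue points. In 18 genes all UA points lie below all DMSO points, in Scd2 and Elovl5 they lie above, and Fasn, Scap and Srebf1 spread widely, with UA b as the lowest point.

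In the cholesterol branch, 10 of the 18 enzymes fell in UA libraries (55.6%), where 16.0% of all genes did. None rose, where 17.7% of all genes did, and 8 did not pass the test. The median log2 fold change was -0.22, with a range of -0.63 to 0.15, and 16 of the 18 estimates were negative. Summed over the 18 enzymes, the level was 2120, 2144 and 2213 CPM in UA libraries a to c, against 2624, 2636 and 2649 CPM in DMSO libraries a to c. The UA sum was thus 0.819 times the DMSO sum, and the groups did not overlap. Without DMSO library b and UA library a, 5 of the 18 were called lower, where 8.61% of all genes were.

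In the mevalonate steps, which turn acetyl-CoA into isoprenoid units, 4 of 7 enzymes fell (57.1%, against 16.0% of all genes). None rose, against 17.7% of all genes, and the median log2 fold change was -0.31. Hmgcs1 (ENSMUSG00000093930), the HMG-CoA synthase that commits carbon to the pathway, had 354, 391 and 373 CPM in UA libraries a to c, against 445, 464 and 481 CPM in DMSO libraries a to c. Every UA library was below every DMSO library, and the log2 fold change was -0.31 ± 0.07 (SE), with a limma adjusted p of 0.00253. The call was lost without DMSO library b and UA library a together (adjusted p = 0.0773) and with scaling to total counts alone (adjusted p = 0.254). Pmvk, the phosphomevalonate kinase, had 54.0, 47.9 and 64.8 CPM in UA libraries, against 81.7, 77.7 and 72.0 CPM in DMSO libraries (log2 fold change -0.49 ± 0.10 SE, limma adjusted p = 0.00178). Mvd, which decarboxylates mevalonate diphosphate, had 74.5, 62.9 and 81.7 CPM in UA libraries and 107, 97.5 and 99.4 CPM in DMSO libraries (log2 fold change -0.48 ± 0.09 SE, limma adjusted p = 9.75e-04). In both genes the groups were apart although UA library b was lowest and UA library c highest of its group. Fdps, which makes farnesyl diphosphate, the branch point towards sterols and protein prenylation, had 38.5, 41.3 and 40.8 CPM in UA libraries and 57.7, 51.9 and 53.7 CPM in DMSO libraries (log2 fold change -0.44 ± 0.08 SE, limma adjusted p = 7.72e-04).

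The other 3 mevalonate genes did not pass the test. Mvk, the mevalonate kinase, had 41.3, 33.2 and 42.0 CPM in UA libraries, against 48.8, 42.7 and 43.0 CPM in DMSO libraries, and its limma adjusted p was 0.116. The groups did not overlap, but the highest UA value lay within 1 CPM of the lowest DMSO value. For Acat2, the cytosolic thiolase that starts the pathway, the log2 fold change was -0.09 ± 0.08 (SE; 95% interval -0.25 to 0.07), and for Idi1, the isopentenyl diphosphate isomerase, it was -0.08 ± 0.14 (SE; 95% interval -0.37 to 0.21). Both overlapped between the groups. Acat3, a close relative of Acat2, had 13 to 27 counts in UA libraries and 24 to 42 counts in DMSO libraries, so few reads could be split between them.

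In the squalene and sterol steps 6 of 11 enzymes fell (54.5%, against 16.0% of all genes). None rose, against 17.7% of all genes, and the median log2 fold change was -0.22. Lss (ENSMUSG00000033105; chromosome 10, 76367422 to 76392972 in the coordinates of the deposited table) is the lanosterol synthase that closes the sterol ring, and it had the largest fall of the 32 genes tested. It had 191, 172 and 191 CPM in UA libraries a to c, against 289, 291 and 277 CPM in DMSO libraries a to c. That is 185 ± 11.3 CPM in UA and 286 ± 8.03 CPM in DMSO libraries (SD, n = 3 each), a fall of 35.5%, with a log2 fold change of -0.63 ± 0.07 (SE) and a limma adjusted p of 9.77e-06. The groups lay far apart relative to their spread, and the antisense transcript 4930483K19Rik, whose span overlaps that of Lss, averaged 31.5 counts per library where Lss averaged 3937. Sqle, the squalene epoxidase that performs the step before Lss and limits flux in this part of the pathway, had 160.3, 162 and 172 CPM in UA libraries and 221, 232 and 231 CPM in DMSO libraries. Its log2 fold change was -0.47 ± 0.07 (SE, limma adjusted p = 1.04e-04), again with no overlap.

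Further down, the falls were smaller. Hsd17b7, a ketosteroid reductase, had 70.7, 68.7 and 66.5 CPM in UA libraries against 81.2, 81.9 and 85.7 CPM in DMSO libraries (log2 fold change -0.27 ± 0.07 SE, limma adjusted p = 0.00954). Cyp51, the lanosterol demethylase, had 434, 447 and 441 CPM in UA libraries against 501, 526 and 518 CPM in DMSO libraries (log2 fold change -0.22 ± 0.06 SE, limma adjusted p = 0.0132). Msmo1, the methylsterol oxidase, had 183, 203 and 189.7 CPM in UA libraries against 222, 216 and 232 CPM in DMSO libraries (log2 fold change -0.22 ± 0.07 SE, limma adjusted p = 0.0248). In all 3 the groups did not overlap. Dhcr7, which performs the last reduction on the way to cholesterol in the Kandutsch-Russell route, had 45.1, 47.3 and 54.9 CPM in UA libraries against 60.7, 56.5 and 56.3 CPM in DMSO libraries (log2 fold change -0.25 ± 0.09 SE, limma adjusted p = 0.0402). Its groups lay less than 2 CPM apart. The calls of Cyp51, Msmo1 and Dhcr7 depended on which libraries were kept. Cyp51 lost its call without DMSO library b (adjusted p = 0.0553) or c (adjusted p = 0.0575). Msmo1 lost it without UA library a (adjusted p = 0.0759) or c (adjusted p = 0.0518), or without DMSO library a (adjusted p = 0.0631) or c (adjusted p = 0.112). Dhcr7 lost it without UA library a (adjusted p = 0.146) or without DMSO library a (adjusted p = 0.146), b (adjusted p = 0.0781) or c (adjusted p = 0.0715).

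Among the 5 sterol enzymes that did not pass the test, Fdft1, the squalene synthase at the entry to the sterol steps, had 88.6, 77.5 and 94.9 CPM in UA libraries against 98.8, 94.0 and 98.3 CPM in DMSO libraries (log2 fold change -0.17 ± 0.08 SE, limma adjusted p = 0.139). Its span in the table overlaps that of Ctsb on the other strand by 774 bases, and the sources used here do not say whether strand was used in counting. Sc5d, the lathosterol oxidase, had a log2 fold change of -0.14 ± 0.07 (SE, limma adjusted p = 0.163), and without UA library b it was called lower (log2 fold change -0.20, adjusted p = 0.0237). Nsdhl, a sterol dehydrogenase that works with Msmo1, and Ebp, the sterol isomerase, had log2 fold changes of -0.04 ± 0.08 and 0.04 ± 0.07 (SE), with 95% intervals of -0.22 to 0.13 and -0.11 to 0.20. Tm7sf2, a sterol reductase, had a log2 fold change of 0.15 ± 0.12 (SE; 95% interval -0.10 to 0.40), and 532 bases of its span overlap that of Vps51 on the same strand. All 5 overlapped between the groups.

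**Figure D2:**
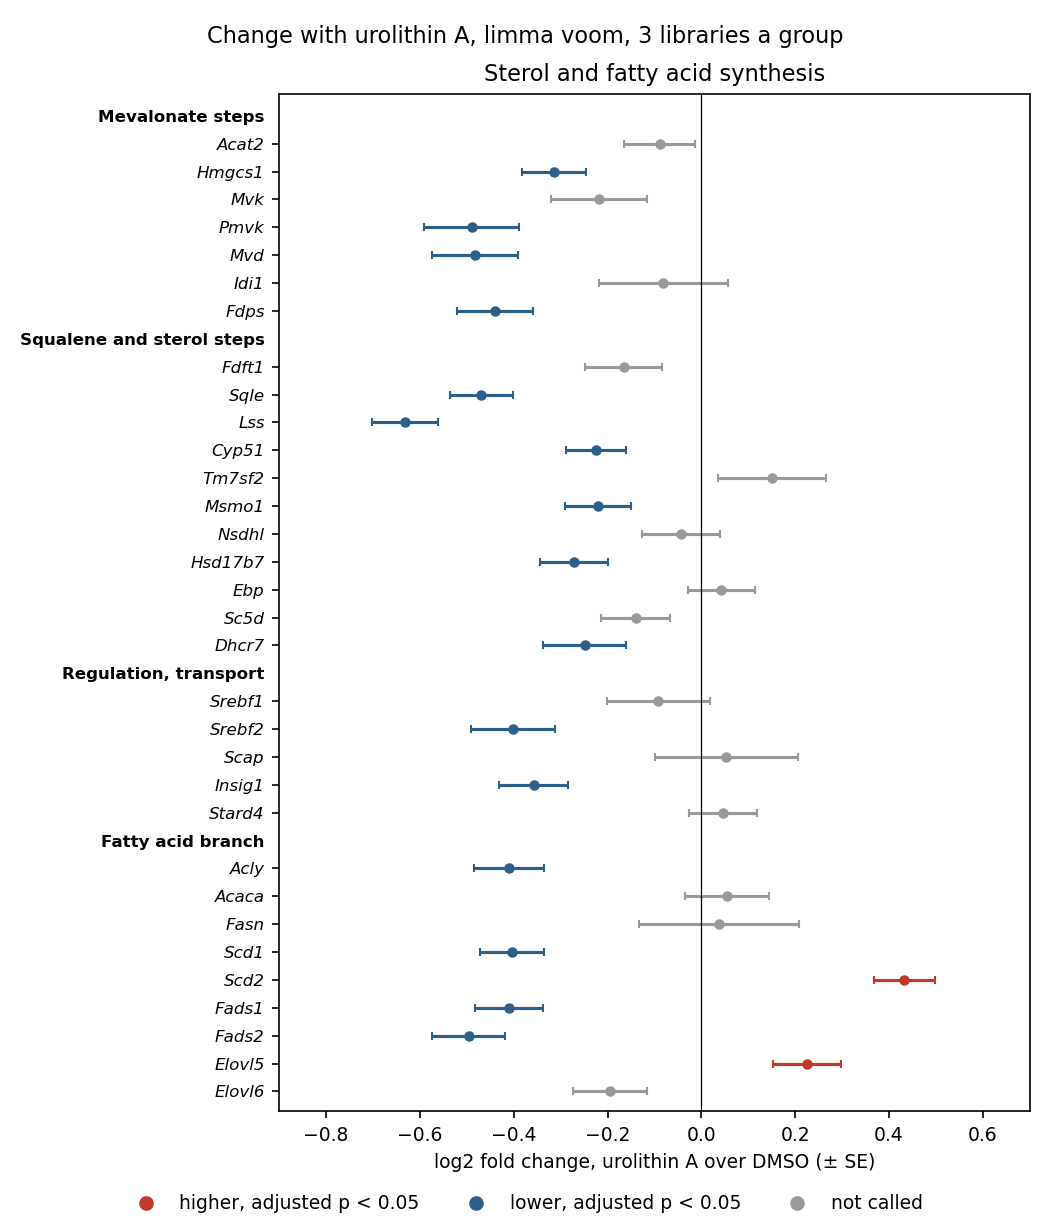
Points give the log2 fold change of UA over DMSO with bars for 1 SE, for the 32 genes tested grouped by role; colour marks genes called higher, called lower or not called. Lss lies lowest at -0.63, and Scd2 at 0.43 and Elovl5 at 0.22 are the called genes above 0.

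The sequence just upstream of 2 of these enzymes is shown because Hmgcs1 was the only gene of the 26 searched to hold a sterol regulatory element (SRE), whereas Lss, which fell most, held none in the same window. Windows of 300 bases, from 250 before to 50 after the start, were taken from RefSeq (GRCm38.p6) for 26 of the 33 genes. The motifs searched on both strands were the SRE TCACNCCAC and the NF-Y box CCAAT. Capitals below mark their matches, with ATTGG as the box on the opposite strand. The Hmgcs1 window is chr13:119690101-119690400 on the + strand and the Lss window is chr10:76531355-76531654 on the + strand.
Hmgcs1: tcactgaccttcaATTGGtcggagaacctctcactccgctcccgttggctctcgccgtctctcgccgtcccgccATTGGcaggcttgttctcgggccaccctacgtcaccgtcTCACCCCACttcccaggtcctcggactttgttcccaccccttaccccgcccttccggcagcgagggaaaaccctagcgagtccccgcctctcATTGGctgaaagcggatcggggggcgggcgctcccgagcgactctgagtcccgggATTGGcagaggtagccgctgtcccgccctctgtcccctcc
Lss: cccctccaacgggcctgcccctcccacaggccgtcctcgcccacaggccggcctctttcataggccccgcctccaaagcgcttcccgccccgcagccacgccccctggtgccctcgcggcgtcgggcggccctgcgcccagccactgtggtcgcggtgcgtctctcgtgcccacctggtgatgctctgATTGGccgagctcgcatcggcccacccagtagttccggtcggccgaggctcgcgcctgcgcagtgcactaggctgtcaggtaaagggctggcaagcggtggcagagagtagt
The Hmgcs1 window holds the SRE at bases 114 to 122 and 4 NF-Y boxes, and the Lss window holds 1 NF-Y box at bases 189 to 193. An NF-Y box was found in at least 1 window of 14 of the 15 cholesterol enzymes with a window (93.3%), the exception being Acat2, against 43.2% of the 10082 tested genes with a window. The SRE was found for 1 of the 26 genes, against 1.39% of the tested genes. The Sp1 box GGGCGG was found for 14 of 15 cholesterol enzymes, against 67.4% of the tested genes. A match describes the letters in the window and not a bound site, and the windows of enzymes that did not pass the test, such as Mvk and Ebp, held the NF-Y box as well.

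Among the regulators, the gene for SREBP2 fell and the gene for SREBP1 did not pass the test. Srebf2 (ENSMUSG00000022463) had 208, 165 and 206 CPM in UA libraries a to c, against 266, 257 and 237 CPM in DMSO libraries a to c. Every UA library was below every DMSO library, with UA library b lowest, and the log2 fold change was -0.40 ± 0.09 (SE, limma adjusted p = 0.00334). Srebf1 had 292, 221 and 284 CPM in UA libraries and 310.4, 289 and 247 CPM in DMSO libraries, and the groups overlapped (log2 fold change -0.09 ± 0.11 SE, limma adjusted p = 0.557, 95% interval -0.33 to 0.15). The table counts genes, so the transcripts for SREBP1a and SREBP1c cannot be told apart. Within each library the ratio of Srebf1 to Srebf2 was 1.40, 1.35 and 1.38 in UA libraries a to c, against 1.17, 1.13 and 1.04 in DMSO libraries a to c. The ratios did not overlap, and the exact two-sided permutation test gave p = 0.1, the smallest that 3 against 3 libraries allow, and 0.2 after Benjamini-Hochberg adjustment over the 4 ratios tested.

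Insig1, which retains SCAP and is itself an SREBP target, fell. It had 184, 163 and 177 CPM in UA libraries, against 229.5, 229.7 and 212 CPM in DMSO libraries, with no overlap (log2 fold change -0.36 ± 0.07 SE, limma adjusted p = 0.00161). Scap had 109, 72.6 and 107 CPM in UA libraries and 95.3, 98.2 and 80.6 CPM in DMSO libraries, a log2 fold change of 0.05 ± 0.15 (SE, limma adjusted p = 0.819). UA library b lay below all 3 DMSO values and UA libraries a and c above them, and without UA library b Scap was called higher (log2 fold change 0.25, adjusted p = 0.0117). Stard4, a soluble carrier of sterols between membranes, had 178, 194 and 176 CPM in UA libraries and 168, 175 and 188 CPM in DMSO libraries, which overlapped (log2 fold change 0.05 ± 0.07 SE, 95% interval -0.11 to 0.20). UA library b was the lowest of its group in 17 of the 32 genes, where it was so in 39% of all genes, and DMSO library c in 16 of the 32, where it was so in 36.2% of all genes.

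In the fatty acid branch 4 of the 9 genes tested fell in UA libraries (Acly, Scd1, Fads1 and Fads2), or 44.4% where 16.0% of all genes fell. Another 2 (Scd2 and Elovl5) rose, or 22.2%, which is near the 17.7% of all genes that rose. The other 3 did not pass the test. The median log2 fold change over the 9 genes tested was -0.19. The summed level of the branch was 4104, 3729 and 4014 CPM in UA libraries a to c, against 3744, 3946 and 3543 CPM in DMSO libraries a to c, which overlapped. Without Scd2, which rose, the sum averaged 2166 ± 210.3 CPM in UA and 2422 ± 128 CPM in DMSO libraries (SD, n = 3 each), a ratio of 0.895. This sum overlapped between the groups as well, with 2335 CPM in UA library a and 2281 CPM in DMSO library c. Acly feeds both branches, and without it 3 of 8 fell, 2 rose and the median was -0.08.

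Acly, the ATP-citrate lyase that makes cytosolic acetyl-CoA, had 657, 561 and 660.0 CPM in UA libraries a to c, against 841, 851 and 798 CPM in DMSO libraries a to c, with no overlap (log2 fold change -0.41 ± 0.07 SE, limma adjusted p = 6.94e-04). Acaca, the acetyl-CoA carboxylase that makes malonyl-CoA, had 66.5, 55.9 and 57.5 CPM in UA libraries and 53.8, 62.6 and 57.2 CPM in DMSO libraries (log2 fold change 0.06 ± 0.09 SE, 95% interval -0.14 to 0.25). Fasn, the fatty acid synthase that builds palmitate, had 953, 615 and 859 CPM in UA libraries and 805, 857 and 676 CPM in DMSO libraries (log2 fold change 0.04 ± 0.17 SE, limma adjusted p = 0.889, 95% interval -0.37 to 0.44). Its values in UA libraries spanned the whole range seen in DMSO libraries, with UA library b lowest and UA library a highest of the 6, so this interval leaves both a fall and a rise of Fasn possible.

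The stearoyl-CoA desaturases, which make monounsaturated fatty acids, moved in opposite directions. Scd1 had 144, 145 and 137 CPM in UA libraries a to c, against 179.6, 192 and 192 CPM in DMSO libraries a to c, a log2 fold change of -0.40 ± 0.07 (SE, limma adjusted p = 4.26e-04). Scd2 (ENSMUSG00000025203; chromosome 19, 44282113 to 44295303 in the table's coordinates) had 1769, 1798 and 1781 CPM in UA libraries, against 1289, 1417 and 1262 CPM in DMSO libraries, a log2 fold change of 0.43 ± 0.07 (SE, limma adjusted p = 1.56e-04). Neither gene overlapped between the groups. The ratio of Scd1 to Scd2 within a library was 0.0813, 0.0806 and 0.0771 in UA libraries a to c, against 0.139, 0.136 and 0.152 in DMSO libraries a to c. These ratios did not overlap, with a difference of -0.84 on the log2 scale (exact two-sided permutation p = 0.1, the smallest possible, and 0.2 after adjustment over the 4 ratios). The relatives Scd3 and Scd4 had at most 17 counts in any library.

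**Figure D3:**
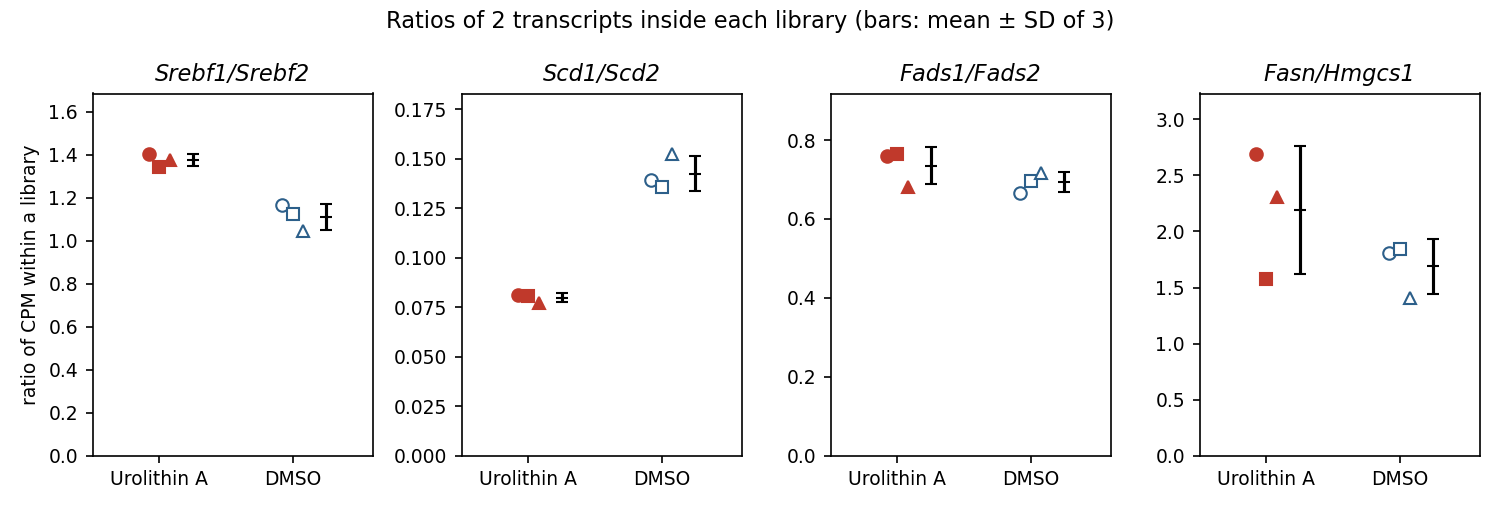
Each point is the ratio of 2 genes' levels within a library, with UA libraries left of DMSO libraries in each of the 4 panels and black bars for the mean and SD of each group's 3 libraries; each y axis is linear and starts at 0. The ratios of Srebf1 to Srebf2 and of Scd1 to Scd2 do not overlap between the groups, whereas those of Fads1 to Fads2 and of Fasn to Hmgcs1 do.

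The desaturases of polyunsaturated fatty acids fell together. Fads1 had 72.7, 69.0 and 69.6 CPM in UA libraries against 95.0, 96.4 and 90.0 CPM in DMSO libraries (log2 fold change -0.41 ± 0.07 SE, limma adjusted p = 5.54e-04), and Fads2 had 95.8, 90.2 and 102 CPM in UA libraries against 143, 138 and 125 CPM in DMSO libraries (log2 fold change -0.50 ± 0.08 SE, limma adjusted p = 2.27e-04). Neither overlapped between the groups, and the ratio of Fads1 to Fads2 did (exact two-sided permutation p = 0.3). Elovl5, which elongates polyunsaturated fatty acids, had 256, 293 and 261 CPM in UA libraries against 227, 227 and 238 CPM in DMSO libraries, a rise with a log2 fold change of 0.22 ± 0.07 (SE, limma adjusted p = 0.0266). The groups did not overlap, but the call was lost without DMSO library a (adjusted p = 0.0876), b (adjusted p = 0.133) or c (adjusted p = 0.052). Elovl6, which elongates palmitate to stearate, had 91.3, 101 and 86.0 CPM in UA libraries against 110.2, 105 and 104 CPM in DMSO libraries (log2 fold change -0.19 ± 0.08 SE, limma adjusted p = 0.0699). Its groups did not overlap, and without UA library b it was called lower (log2 fold change -0.26, adjusted p = 0.00449).

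The windows at Fasn and Elovl5 are shown as examples of fatty acid genes that hold NF-Y boxes, as most cholesterol enzymes do, and were not called lower. Acly, of the same branch, holds an NF-Y box as well and was called lower. Whether the boxes bear on the changes was not tested. The Fasn window is chr11:120824498-120824797 on the - strand and the Elovl5 window is chr9:77917115-77917414 on the + strand, both from RefSeq (GRCm38.p6), with the boxes in capitals.
Fasn: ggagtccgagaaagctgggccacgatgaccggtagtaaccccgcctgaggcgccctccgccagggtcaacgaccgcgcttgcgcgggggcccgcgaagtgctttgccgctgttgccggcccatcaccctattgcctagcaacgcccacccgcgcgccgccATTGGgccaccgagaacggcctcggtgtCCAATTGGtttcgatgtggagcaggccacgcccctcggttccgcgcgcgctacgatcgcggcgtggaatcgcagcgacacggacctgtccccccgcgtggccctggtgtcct
Elovl5: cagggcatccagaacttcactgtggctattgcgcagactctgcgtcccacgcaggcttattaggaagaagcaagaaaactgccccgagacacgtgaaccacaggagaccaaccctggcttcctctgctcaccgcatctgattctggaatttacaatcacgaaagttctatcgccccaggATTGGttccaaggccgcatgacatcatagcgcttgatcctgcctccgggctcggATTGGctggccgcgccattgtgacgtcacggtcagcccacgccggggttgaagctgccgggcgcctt
Fasn holds 3 boxes, at bases 161 to 165, 189 to 193 and 192 to 196, of which the last pair overlap, and Elovl5 holds 2, at bases 180 to 184 and 234 to 238. An NF-Y box was found for 4 of the 7 fatty acid genes with a window, or 57.1%, and an Sp1 box for 3 of 7. No window of these 7 held the SRE. The E-box CACGTG was found for 1 of the 7 and for 3 of the 15 cholesterol enzymes, against 11.9% of the tested genes.

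**Figure D4:**
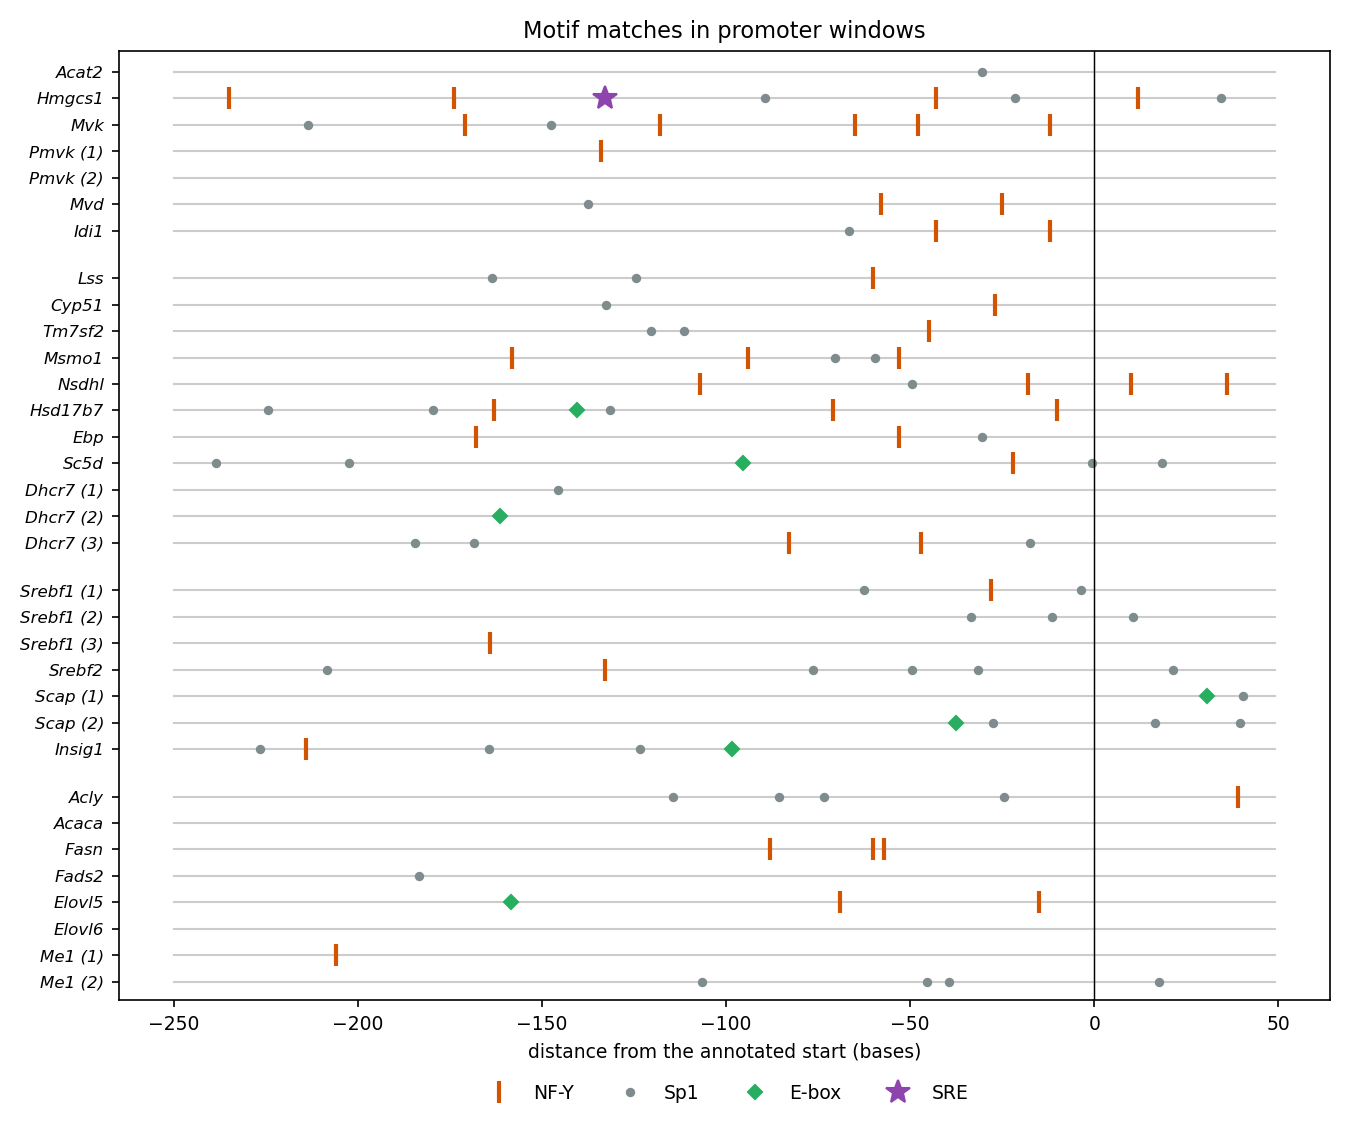
Lines give the window from 250 bases before to 50 after the start for each gene with a RefSeq promoter, and marks show where the SRE, NF-Y, Sp1 and E-box motifs were found. NF-Y boxes lie in the windows of 14 of 15 cholesterol enzymes and 4 of 7 fatty acid genes.

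Set against each other, the cholesterol sum was lower in all 3 UA libraries, and Scd2 alone, with 1783 ± 14.6 CPM in UA and 1323 ± 82.4 CPM in DMSO libraries (SD, n = 3 each), was the largest part of the fatty acid sum. The ratio of Fasn to Hmgcs1, an enzyme of each branch, was 2.69, 1.57 and 2.30 in UA libraries a to c, against 1.81, 1.85 and 1.41 in DMSO libraries a to c. UA library b lay among the DMSO values, and the exact two-sided permutation p was 0.3. No test of the difference between the branches was made beyond these ratios, since the genes of a branch are not replicates.

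Per kilobase of exon, Scd2 was the most abundant of the 33 genes in both groups, at 326 ± 2.66 CPM per kilobase in UA and 242 ± 15.1 in DMSO libraries (SD, n = 3 each). Acly followed at 119 ± 10.6 CPM per kilobase in UA and 157 ± 5.32 in DMSO libraries, and Cyp51 at 99.8 ± 1.49 in UA and 117 ± 2.88 in DMSO libraries. Hmgcs1 stood at 81.1 ± 4.08 CPM per kilobase in UA and 101 ± 3.94 in DMSO libraries, and Fasn at 73.9 ± 15.9 in UA and 71.2 ± 8.48 in DMSO libraries. Scd1 was at 29.0 ± 0.844 CPM per kilobase in UA and 38.4 ± 1.499 in DMSO libraries, far below Scd2. Srebf1 was at 47.1 ± 6.82 CPM per kilobase in UA and 50.1 ± 5.70 in DMSO libraries, and Srebf2 at 26.8 ± 3.38 in UA and 35.2 ± 2.11 in DMSO libraries. Acaca, at 3.51 ± 0.334 CPM per kilobase in UA and 3.39 ± 0.259 in DMSO libraries, was among the lowest.

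**Figure D5:**
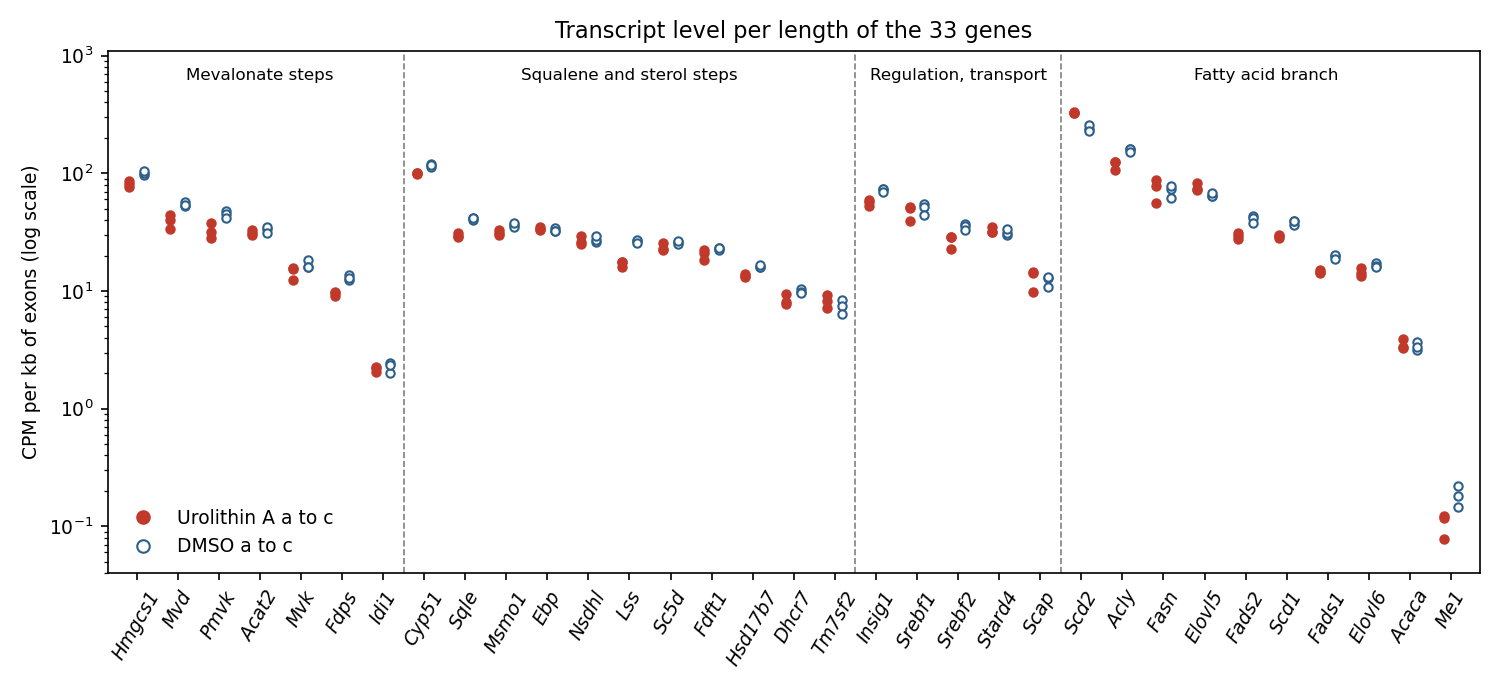
Points give each library's level in CPM per kilobase of exon on a log axis, with UA points left of DMSO points for each gene and genes sorted within their role. Scd2 stands highest at 326 CPM per kilobase in UA and 242 in DMSO libraries, and Me1 lowest at 0.106 in UA and 0.182 in DMSO libraries.

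Outside the 33 genes, 84 others that supply, sense, store or export these lipids were looked at in 5 lists, and 74 were tested. Of these 18 fell (24.3%) and 14 rose (18.9%), closer to the 16.0% and 17.7% of all genes than the 33 genes were, with a median log2 fold change of -0.03. In each list the genes named are the 2 with the smallest p in each direction, unless stated.

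The list of cholesterol supply also held genes of other steps, such as Pcyt2. Among its 12 genes tested, 4 fell (33.3%) and 3 rose (25.0%), where 16.0% and 17.7% of all genes did. Pcyt2, an enzyme of phosphatidylethanolamine synthesis, had 88.8, 72.8 and 85.8 CPM in UA libraries against 117, 105 and 95.1 CPM in DMSO libraries (log2 fold change -0.36 ± 0.10 SE, limma adjusted p = 0.00940). Its call was lost without DMSO library a (adjusted p = 0.0643) and with total counts alone (adjusted p = 0.179). The 2 rising genes with the smallest p both act in the lysosome. Lipa, the acid lipase that frees cholesterol from its esters, had 67.7, 70.6 and 72.3 CPM in UA libraries against 48.3, 46.6 and 52.5 CPM in DMSO libraries (log2 fold change 0.51 ± 0.08 SE, limma adjusted p = 1.83e-04). Npc2, which carries that cholesterol to the lysosomal membrane, had 1107, 1054 and 1144 CPM in UA libraries against 898, 851 and 828 CPM in DMSO libraries (log2 fold change 0.36 ± 0.07 SE, limma adjusted p = 7.27e-04). Neither overlapped between the groups.

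Of 10 genes known to answer sterol excess, 4 rose (40.0%) and 2 fell (20.0%), where 17.7% and 16.0% of all genes did. Abca1 had the largest log2 fold change of all 5 lists. It had 12.6, 11.1 and 11.3 CPM in UA libraries a to c, against 4.003, 3.90 and 3.39 CPM in DMSO libraries a to c, a log2 fold change of 1.64 ± 0.15 (SE, limma adjusted p = 1.77e-06). Abcg1 had 68.0, 81.2 and 74.8 CPM in UA libraries, against 35.6, 28.0 and 30.6 CPM in DMSO libraries, a log2 fold change of 1.25 ± 0.10 (SE, limma adjusted p = 4.04e-07). Both exporters were higher in all 3 UA libraries than in any DMSO library, while the median change over the 10 genes was 0.18. Both are also known from macrophages. The myeloid marker Mpeg1 rose by a similar factor, with 6.77, 7.82 and 8.06 CPM in UA libraries against 2.44, 2.30 and 2.33 CPM in DMSO libraries (log2 fold change 1.65 ± 0.18 SE, limma adjusted p = 8.42e-06). It was most of the sum of the 10 myeloid markers and the only 1 of them that passed the count filter. Among the others, all with few counts, Itgam was higher in UA libraries (7, 11 and 6 counts against 3, 0 and 4 counts). Adgre1 was lower in UA libraries (1, 3 and 2 counts against 5, 5 and 6 counts). The part of such cells in the rise of Abca1 and Abcg1 was not tested. Mylip, a ubiquitin ligase that LXR is known to induce and that was named after its values were seen, rose as well (log2 fold change 0.97 ± 0.18 SE, limma adjusted p = 7.41e-04). The 4 genes of this list that did not pass the test are also named. Their log2 fold changes were -0.52 for Apoe, 0.01 for Lpcat3, -0.03 for Nr1h2 and 0.50 for Nr1h3. For Apoe every UA library lay below every DMSO library. Whether LXR was more active in UA libraries was not tested. The enzymes that store cholesterol as esters fell. Soat1 had 132, 159 and 129.8 CPM in UA libraries against 178, 201 and 195 CPM in DMSO libraries (log2 fold change -0.45 ± 0.09 SE, limma adjusted p = 0.00105), and Soat2 had 23.2, 17.5 and 20.9 CPM in UA libraries against 32.5, 32.4 and 32.0 CPM in DMSO libraries (log2 fold change -0.66 ± 0.11 SE, limma adjusted p = 2.57e-04).

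Of 16 genes that process SREBPs or act with them, 3 fell (18.8%), near the 16.0% of all genes that fell. In this list 1 rose (6.2%), where 17.7% of all genes did, and the median log2 fold change was 0.03. Nfya, a subunit of NF-Y, had 40.4, 32.7 and 37.4 CPM in UA libraries against 50.7, 50.8 and 45.9 CPM in DMSO libraries (log2 fold change -0.42 ± 0.09 SE, limma adjusted p = 0.00329), and its call was lost with total counts alone (adjusted p = 0.108). Usf2, an E-box factor, had a log2 fold change of -0.29 ± 0.08 (SE, limma adjusted p = 0.0155) and lost its call without DMSO library b (adjusted p = 0.0584), without the 2 libraries high in Rn18s (adjusted p = 0.117) and with total counts alone (adjusted p = 0.388). Rnf139, a ubiquitin ligase of the endoplasmic reticulum, rose with a log2 fold change of 0.24 ± 0.08 (SE, limma adjusted p = 0.0261). Its call was lost without UA library a (adjusted p = 0.103) or without DMSO library a (adjusted p = 0.0769) or b (adjusted p = 0.158), without the 2 libraries high in Rn18s (adjusted p = 0.343) and with total counts alone (adjusted p = 0.099).

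Of 19 other fatty acid genes tested, 5 fell (26.3%) and 1 rose (5.3%), where 16.0% and 17.7% of all genes did. Hsd17b12, a reductase of the elongation cycle, had 94.1, 87.2 and 99.8 CPM in UA libraries against 123, 139 and 133 CPM in DMSO libraries (log2 fold change -0.49 ± 0.08 SE, limma adjusted p = 2.33e-04). Acsl1, an acyl-CoA synthetase, had a log2 fold change of -0.41 ± 0.10 (SE, limma adjusted p = 0.00618) and lost its call without the 2 libraries high in Rn18s (adjusted p = 0.0564) and with total counts alone (adjusted p = 0.135). Elovl7, an elongase of long fatty acids, rose, with 2.39, 2.15 and 2.64 CPM in UA libraries against 0.928, 0.765 and 1.06 CPM in DMSO libraries (log2 fold change 1.34 ± 0.27 SE, limma adjusted p = 0.00145).

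Of 17 genes that assemble phospholipids and triglycerides, 5 rose (29.4%) and 4 fell (23.5%), where 17.7% and 16.0% of all genes did. Lpin1, a phosphatidic acid phosphatase, had 142, 144 and 147 CPM in UA libraries against 84.4, 90.5 and 83.0 CPM in DMSO libraries (log2 fold change 0.75 ± 0.07 SE, limma adjusted p = 1.90e-06). Lpin3, of the same family, had a log2 fold change of 1.21 ± 0.30 (SE, limma adjusted p = 0.00663). Dgat2, which completes triglycerides, had 1.56, 1.93 and 2.64 CPM in UA libraries against 4.70, 5.08 and 3.61 CPM in DMSO libraries (log2 fold change -1.16 ± 0.24 SE, limma adjusted p = 0.00170), and Agpat3, which acylates lysophosphatidic acid, had 191, 142 and 184 CPM in UA libraries against 246, 234 and 226 CPM in DMSO libraries (log2 fold change -0.46 ± 0.10 SE, limma adjusted p = 0.00236). In these 3 lists the groups did not overlap for any gene named: Nfya, Usf2, Rnf139, Hsd17b12, Acsl1, Elovl7, Lpin1, Lpin3, Dgat2 and Agpat3. Over all genes, every UA library lay below every DMSO library in 22.7% and above in 24.1%.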

How the data were processed

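RNA from activated spleen T cells was measured by mRNA sequencing in 3 UA and 3 DMSO libraries, each made from total RNA, per the labels' protocols. The submitters' processing notes name bcl2fastq 2.20.0.422, FastQC, STAR 2.5.2a with the build mm10, and DESeq2. The table's coordinates are not those of mm10: of the 18725 gene IDs shared with the mm10 annotation GENCODE M21, 385 had the same start and end, and none of the 33 genes did. They are printed as the table holds them, and their build is not known. No source used here names the counting program, the annotation or the strand setting. Values in the deposited table carry a decimal comma and the labels state no unit, so the unit is recorded as other; all values in the 6 columns used were whole and were treated as the authors' read counts per gene. Because the unit was recorded so, limma's voom was used in place of a count model. Its offset and weights also treat the values as read counts, so the doubt about the unit remains. Both deposited files hold the same values and 1 was used. The 3 per-library columns that match no labelled sample were not used.

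Genes with at least 10 counts per median-sized library in 3 libraries and 15 counts in all were kept (14444 genes). Counts were scaled by trimmed means of M values (30% and 5% trimmed) and fitted with limma 3.58.1 in R 4.3.3, using voom with an offset of 0.5, group as the only term and robust moderation. Benjamini-Hochberg adjustment ran over all 14444 genes, and genes with an adjusted p under 0.05 were called. The limma fit was tested on simulated counts, and the other steps were not. In the simulation no library held a larger share of Rn18s than the others, so it does not cover that feature of these data. CPM are counts per 1000000 of the scaled library size. Levels per kilobase use the union of GENCODE M21 exons. Ratios within a library were compared by exact two-sided permutation tests. Alternatives covered scaling, filters, the test, left-out libraries and the replicate letter. Medians of a list are given beside those of all genes and are not a test.

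The 33 genes, the other lists and the markers were chosen with earlier results of these data known, and every one of the 33 is reported. From each other list the 2 called genes with the smallest p in each direction are named; exceptions are marked, and a few genes of these lists are not reported here by name. RefSeq windows (GRCm38.p6) were matched by symbol and exon lengths by gene ID, so neither uses the table's coordinates.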

Additional observations from a re-analysis of the deposited data

How the results depend on the processing

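Over the 32 tested genes and the alternatives run, 14 of 512 log2 fold changes took the opposite sign, all of genes that neither fit called. With scaling to total counts alone these were Acat2 (0.0001), Idi1 (0.0177) and Nsdhl (0.0492), and without both DMSO library b and UA library a, Scap (-0.017) and Fasn (-0.0373). The others came from leaving out 1 library, over which the log2 fold change ran from -0.0717 to 0.2477 for Scap, -0.1106 to 0.2251 for Fasn, -0.0416 to 0.1087 for Acaca, -0.1852 to 0.035 for Srebf1 and -0.1104 to 0.0007 for Nsdhl. Of the 18 calls, 14 held whichever of the 6 libraries was left out, and 6 (Pmvk, Mvd, Sqle, Lss, Scd2 and Fads2) held in every alternative. With libraries scaled to total counts alone, 932 of all genes were lower; of the 33 genes 5 were lower and 1 higher, with 4 lower among cholesterol enzymes, 1 lower and 1 higher among fatty acid genes, and 6 lower among the other pathway genes. That scaling moved the median of all genes by 0.089. With ribosomal RNA genes removed as well, an alternative chosen after seeing the data, 15 of the 33 were lower and 2 higher. Without DMSO library b and UA library a, 1244 of all genes were lower and 1429 higher; of the 33 genes 1 was higher, with 5 lower among cholesterol enzymes and 1 higher among fatty acid genes, and the other pathway genes gave 10 lower and 9 higher. Leaving out 1 library gave 1 to 3 higher among the 33 genes, 1 to 2 higher among fatty acid genes, and 11 to 20 lower and 9 to 15 higher among the other pathway genes. The letters a to c do not show that libraries were paired: deviations of same-letter libraries correlated at 0.0749 (a), -0.144 (b) and -0.0827 (c). Between libraries of different letters the correlations ran from -0.2647 (UA a with DMSO c) to 0.2944 (UA b with DMSO c). Whether libraries of different letters shared a source was not tested. With the letter as a replicate block, 15 of the 33 were lower and 2 higher, and 2137 and 2359 of all genes; Dhcr7 lost its call (adjusted p = 0.0612).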
